A study of Oryctolagus cuniculus with 34 samples.

Results

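The contractile genes MYH8 (ENSOCUG00000010229), MYOM2 (ENSOCUG00000013131) and ATP2A1 (ENSOCUG00000002688) were followed in rabbit supraspinatus muscle after rotator cuff repair. MYOM2 and ATP2A1 were taken by their identifiers and MYH8 by its symbol. The 3 genes were chosen with earlier results of these data known. They are 3 of the 23669 genes of the deposited table, and all 3 passed the minimum that left 12937 genes for testing (a CPM, or count per 1e6 counts of the library, over 1 in at least 1 library).

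Skeletal muscle shortens when heads of myosin pull on actin within the sarcomere, and it relaxes when calcium is pumped back into the sarcoplasmic reticulum. MYH8 encodes the neonatal (perinatal) myosin heavy chain, a form made around birth, largely replaced by adult chains afterwards and made again in regenerating fibers. MYOM2 encodes myomesin 2, a protein of the M-band that ties the thick filaments together in the middle of the sarcomere. ATP2A1 encodes the calcium pump of the sarcoplasmic reticulum of fast-twitch fibers.

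The animals were skeletally mature female New Zealand White rabbits of about 6 months. The left supraspinatus tendon was cut (tenotomy) and repaired in an open operation 8 weeks later, and the right shoulder, called control or sham in the records, was not operated. Muscle of both shoulders was taken 1 week (rabbits 5, 6, 7 and 8), 2 weeks (rabbits 59, 60, 61, 62 and 64), 4 weeks (rabbits 63, 66, 67 and 68) or 8 weeks (rabbits 1, 2, 3 and 4) after repair, which gave 34 libraries from 17 rabbits. Tenotomy and repair cannot be told apart, because every repair followed a tenotomy and no group had a tenotomy alone; each library also stands for 1 piece of the posterior lateral region, and the control shoulder belongs to an operated animal.

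The repair library of rabbit 3 was left out, as it was in the study, so that 33 libraries and 16 complete pairs of shoulders remained. Their totals lay between 9220035 and 28395188 counts, with 13262913 to 28395188 in the libraries of 1 and 8 weeks and 9220035 to 12332438 in those of 2 and 4 weeks, which also carry another series of sample titles; time, title series and depth cannot be told apart between these sets. Markers of skeletal muscle were present in every library, with desmin (DES) at 1145 to 5969 CPM and the fast troponin T (TNNT3) at 346 to 20533 CPM. MYH8 had between 186 and 25561 expected counts, MYOM2 6044 to 83198 and ATP2A1 57117 to 740020, so none of the 3 genes was near the limit of detection. The deposited counts, given to 2 decimals, were exactly whole for MYOM2 in 34 of 34 libraries and for MYH8 and ATP2A1 in 0, as happens where reads are shared with other transcripts; how reads were divided between MYH8 and the near-identical sequences of other myosin heavy chains, or between ATP2A1 and related pumps, was not tested. Transcript lengths were not at hand, so levels are compared between samples and not between the 3 genes. In bulk muscle, fewer fibers and less RNA per fiber cannot be told apart.

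Levels are given below as CPM after TMM scaling, which sets each library's total by the bulk of its genes. The scaling factors were 0.823 to 0.993 in the controls. In repaired muscle they were 1.10 to 1.43 (1 week), 0.884 to 1.51 (2 weeks), 0.958 to 1.13 (4 weeks) and 0.875 to 1.10 (8 weeks). Genes with an adjusted p under 0.05 in limma-voom were called, with the adjustment over all 12937 genes. At 1 week 881 genes were called higher and 890 lower, 13.7% of those tested; with plain library totals, without scaling factors, the split was 3858 higher and 233 lower, and the median log2 fold change (log2FC) of all genes moved from 0.05 to 0.47. The split moved from 1029 and 1024 to 692 and 226 at 2 weeks and from 10 and 6 to 9 and 0 at 4 weeks, with medians moved from 0.06 to 0.29 and from 0.05 to 0.32.

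At 1 week post-repair MYH8 was upregulated and MYOM2 downregulated, whereas the lower level of ATP2A1 missed the threshold. MYH8 was at 79.2, 18.8, 24.8 and 29.5 CPM in the control shoulders of rabbits 5, 6, 7 and 8, and at 721, 65.1, 903 and 95.9 CPM in their repaired shoulders. It was higher on the repaired side of 4 of 4 rabbits; the groups still overlapped, because control muscle of rabbit 5 held more than repaired muscle of rabbit 6. The log2FC was 2.97 (SE 0.80, adjusted p = 0.0190), where 6.81% of all genes were called higher. Rabbits 5 and 7 carried most of this rise, and without either of their repair libraries the call was lost (log2FC 2.43, adjusted p = 0.0547, and 2.40, adjusted p = 0.0767), as it was without the control library of rabbit 7 (2.84, adjusted p = 0.0539).

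MYOM2 went from 3975, 3042, 3112 and 3088 CPM in the controls of the same rabbits to 1948, 220.0, 1142 and 2109 CPM in repaired muscle. Every repaired shoulder lay below every control, and the control of rabbit 5 stood above the other 3 controls. How many of all genes had groups apart in this way, here or at later times, was not counted. The log2FC was -1.67 (SE 0.46, adjusted p = 0.0198), beside 6.88% of all genes called lower. Rabbit 6 was far below the rest, and without its repair library the log2FC was -0.96 (adjusted p = 0.0637); the call was also lost without the control library of rabbit 5, which held the highest control level (-1.57, adjusted p = 0.0635), and in a fit of the 1 week libraries alone (-1.69, adjusted p = 0.0848).

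ATP2A1 was at 30478, 25566, 27683 and 22583 CPM in these controls and at 23295, 3063, 12865 and 18192 CPM in repaired muscle. All 4 rabbits had less in the repaired shoulder, and rabbit 6 again had the least, but the repaired muscle of rabbit 5 exceeded the control of rabbit 8. The log2FC of -1.19 (SE 0.57) had an unadjusted p of 0.0478 and an adjusted p of 0.146. Without the repair library of rabbit 6 it was -0.57 (adjusted p = 0.503).

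**Figure D1:**
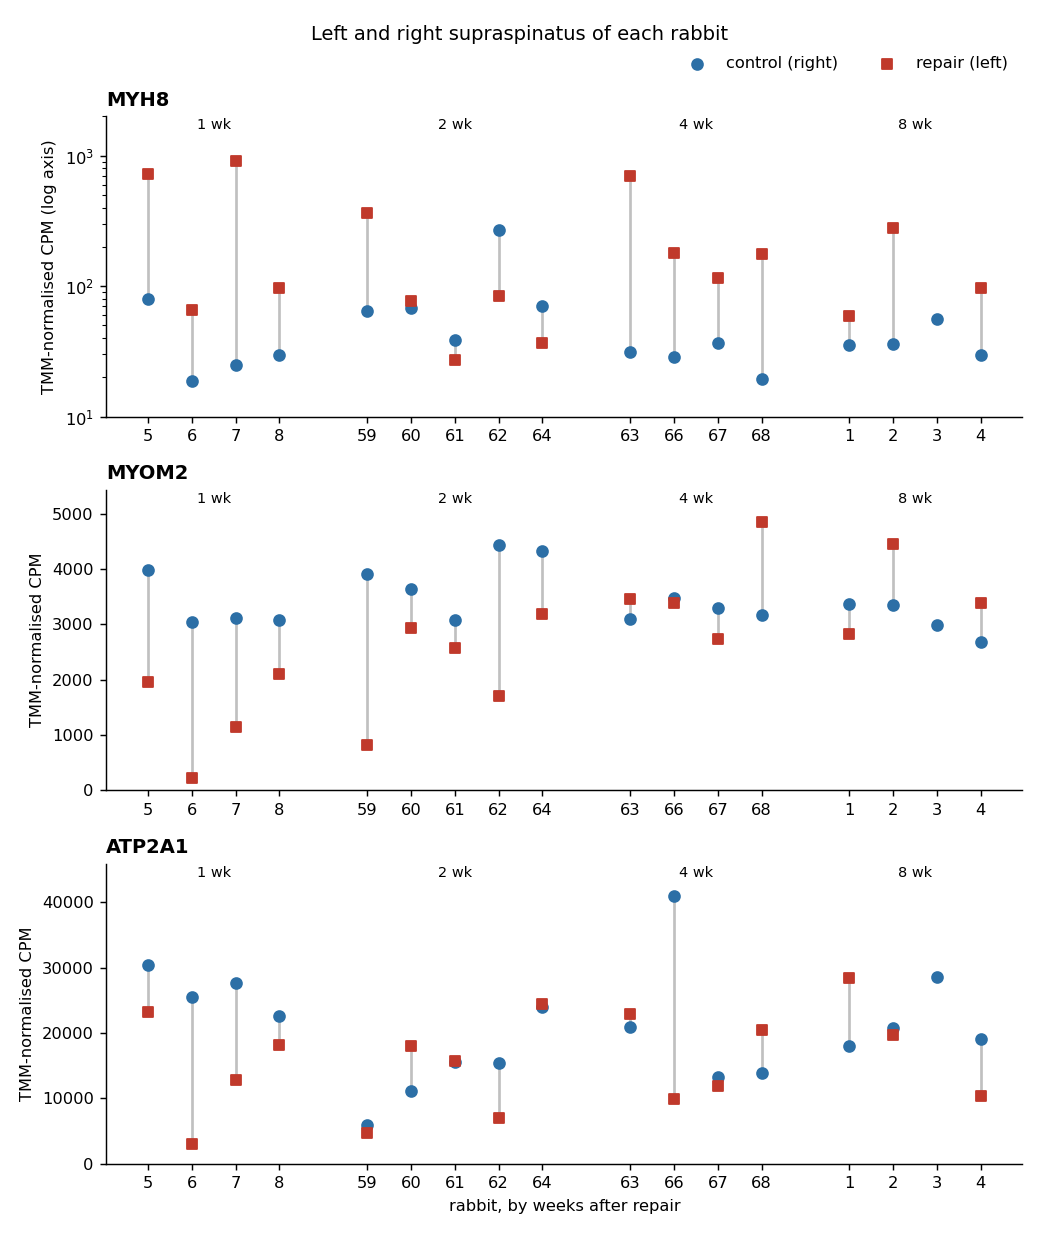
TMM-normalised CPM of MYH8 (log axis), MYOM2 and ATP2A1 (linear axes from 0) in the control (blue circle) and repaired (red square) supraspinatus of each rabbit, by weeks after repair; a line joins the shoulders of 1 rabbit, and rabbit 3 has a control point only. MYH8 lay above the control in all rabbits of 1, 4 and 8 weeks but in 2 of 5 at 2 weeks, while MYOM2 lay below it in all rabbits of 1 and 2 weeks.

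At 2 weeks none of the 3 genes was called, where 15.9% of all genes were (limma-voom; 1 of the 3, MYOM2, had an unadjusted p under 0.05, and neither edgeR nor DESeq2 called any). MYOM2 was at 3912, 3632, 3080, 4439 and 4323 CPM in the controls of rabbits 59, 60, 61, 62 and 64 and at 816, 2928, 2576, 1697 and 3189 CPM in repaired muscle. It was lower on the repaired side in 5 of 5 rabbits, with the largest gaps in rabbits 59 and 62, although 1 repaired shoulder (rabbit 64) exceeded the lowest control. The log2FC was -0.90 (SE 0.40, unadjusted p = 0.0309, adjusted p = 0.104), and -0.60 (adjusted p = 0.358) without the repair library of rabbit 59.

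MYH8 had no common direction at 2 weeks. The controls held 64.1, 68.5, 38.7, 271 and 70.8 CPM and the repaired shoulders 361, 77.4, 27.1, 83.3 and 36.9 CPM in the same order of rabbits. Rabbit 59 was high on the repaired side and rabbit 62 on the control side, and 2 of 5 rabbits had more in the repaired shoulder. The log2FC of -0.12 (SE 0.63, adjusted p = 0.907) turned with the libraries and tools used: it was 0.32 without the control library of rabbit 62, -0.66 without the repair library of rabbit 59, and 0.19 in edgeR.

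ATP2A1 was at 5934, 11176, 15515, 15479 and 23936 CPM in the controls of 2 weeks and at 4780, 18032, 15782, 6975 and 24380 CPM in repaired muscle. Rabbit 59 was lowest and rabbit 64 highest in both shoulders, and 3 of 5 rabbits had more on the repaired side. The log2FC was -0.11 (SE 0.45, adjusted p = 0.881); plain library totals turned it to 0.10, with 4 of 5 rabbits then higher.

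At 4 weeks MYH8 was again higher in every repaired shoulder, while MYOM2 and ATP2A1 differed in either direction. MYH8 was at 31.4, 28.7, 36.8 and 19.5 CPM in the controls of rabbits 63, 66, 67 and 68 and at 703, 180, 115 and 177 CPM after repair, with no overlap between the groups. Its log2FC of 3.01 (SE 0.76) was as large as that of 1 week, but with an unadjusted p of 0.000458 the adjusted p was 0.0805, at a time when 0.124% of all genes were called. With the shoulders of a rabbit paired (rabbit as a replicate block) MYH8 was called at 4 weeks (log2FC 2.98, adjusted p = 0.0179), as it was with an estimated correlation between shoulders (3.01, adjusted p = 0.0271), edgeR (3.33, adjusted p = 0.0346) and DESeq2 (3.32, adjusted p = 0.00265). In the same order these fits called 364, 189, 326 and 675 of all genes, against 16 in the fit used here. Rabbit 63 stood above the other 3, and without its repair library the log2FC was 2.45 (adjusted p = 0.191).

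MYOM2 was at 3106, 3474, 3296 and 3164 CPM in the controls of 4 weeks and at 3464, 3379, 2728 and 4848 CPM in repaired muscle. The controls spanned a narrow range that lay inside the range of the repaired shoulders, with rabbit 68 above and rabbit 67 below it. Its log2FC was 0.12 (SE 0.45, adjusted p = 0.911). ATP2A1 was at 21007, 41009, 13321 and 13892 CPM in these controls and at 22903, 9963, 11937 and 20550 CPM in repaired muscle, with a log2FC of -0.37 (SE 0.53, adjusted p = 0.751). Rabbit 66 had the highest control level of all libraries, and without that library the log2FC was -0.02.

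By 8 weeks 1 gene of all those tested was called (0.00773%), and it was none of the 3. MYH8 was at 35.6, 36.2, 55.6 and 29.6 CPM in the controls of rabbits 1, 2, 3 and 4 and at 58.5, 279 and 96.2 CPM in the repaired shoulders of rabbits 1, 2 and 4. All 3 repaired shoulders lay above all 4 controls, by little in rabbit 1. Groups this small can lie apart by chance, and the share of all genes that did was not counted. The log2FC was 1.58 (SE 0.79, unadjusted p = 0.0551, adjusted p = 0.999). The left-out repair library of rabbit 3 was at 15.6 CPM before scaling against 50.1 in its control, and with it in the fit the log2FC was 1.11 (adjusted p = 0.421).

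For MYOM2 the controls of 8 weeks held 3369, 3346, 2981 and 2686 CPM and the repaired shoulders 2819, 4451 and 3380 CPM, with 2 of 3 rabbits higher after repair (log2FC 0.17, SE 0.52, adjusted p = 0.999). ATP2A1 was at 18055, 20739, 28656 and 19068 CPM in the controls and at 28509, 19757 and 10418 CPM after repair, with 1 of 3 rabbits higher (log2FC -0.21, SE 0.62, adjusted p = 0.999). In neither gene did the groups separate. In the left-out library MYOM2 was at 1300 and ATP2A1 at 3325 CPM before scaling, against 2683 and 25789 in the control of the same rabbit.

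**Figure D2:**
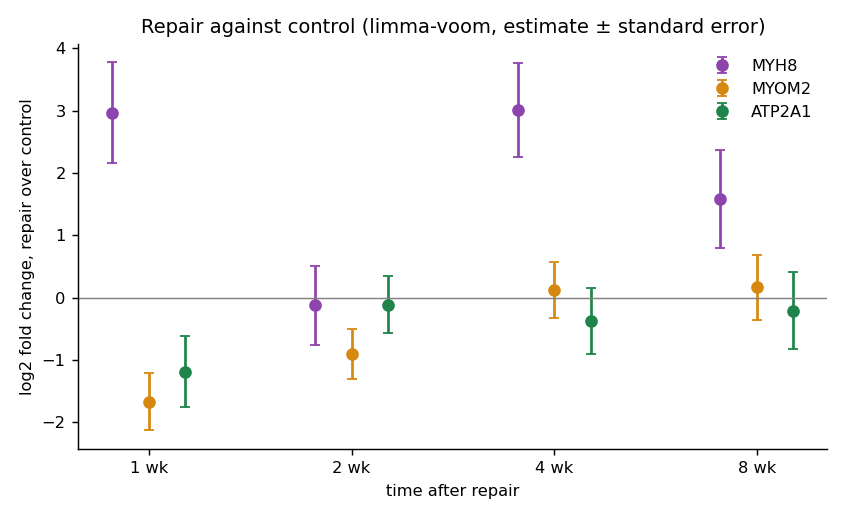
Log2 fold change of repair over control (vertical axis) at each time after repair (horizontal axis) for MYH8, MYOM2 and ATP2A1; points are limma-voom estimates and bars their standard errors. MYH8 stood near 3 at 1 and 4 weeks and near 0 at 2 weeks, whereas MYOM2 went from -1.67 at 1 week to 0.17 at 8 weeks.

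The change of each effect between time points was tested in the same fit. For MYH8 the effect at 1 week exceeded that at 2 weeks by 3.09 on the log2 scale (SE 1.02, unadjusted p = 0.00524, adjusted p = 0.703), and the effect at 2 weeks minus that at 4 weeks was -3.13 (SE 0.99, unadjusted p = 0.00366, adjusted p = 1.00). For MYOM2 the effect at 1 week minus that at 8 weeks was -1.84 (SE 0.69, unadjusted p = 0.0131, adjusted p = 0.827). None of these passed the correction. No gene did in any of the 4 differences tested (0% called in limma-voom; 333 to 694 genes had an unadjusted p under 0.05, edgeR called 0 and DESeq2 1 to 4 genes). The other differences of the 3 genes had unadjusted p-values of 0.0996 to 0.951.

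Averaged over the 4 time points, a contrast added after the values were seen, MYH8 was higher in repaired muscle by 1.86 (SE 0.38, adjusted p = 0.00061) and MYOM2 lower (-0.57, SE 0.23, adjusted p = 0.0481), while ATP2A1 was at -0.47 (SE 0.27, adjusted p = 0.168). This contrast called 40.1% of all genes, 22.4% higher and 17.7% lower. Over the 16 rabbits with both shoulders, MYH8 was higher on the repaired side in 13, MYOM2 lower in 12 and ATP2A1 lower in 10. Leaving out single libraries lost the MYOM2 call in 24 of 33 fits, with adjusted p-values of 0.0221 to 0.0841.

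In unoperated muscle MYOM2 was at 3304 ± 448 (SD, n = 4) at 1 week, 3877 ± 550 (n = 5) at 2 weeks, 3260 ± 164 (n = 4) at 4 weeks and 3096 ± 326 CPM (n = 4) at 8 weeks, a coefficient of variation of 5.02 to 14.2%, beside 12.6 to 58.0% in ATP2A1 and 24.9 to 92.6% in MYH8. At 1 week that of ATP2A1 (12.6%) was below that of MYOM2 (13.6%). MYH8 in controls was at 38.1 ± 27.8, 103 ± 95.0, 29.1 ± 7.25 and 39.3 ± 11.3 CPM, and ATP2A1 at 26578 ± 3337, 14408 ± 6622, 22307 ± 12949 and 21630 ± 4813 CPM. The controls of the deeper series (1 and 8 weeks) minus those of the other (2 and 4 weeks) differed by -0.44 in MYH8 (adjusted p = 0.594), -0.15 in MYOM2 (adjusted p = 0.797) and 0.55 in ATP2A1 (adjusted p = 0.362) on the log2 scale. None of the 3 was called, beside 15.5% of all genes.

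In repaired muscle MYH8 averaged 446 ± 429 (SD, n = 4), 117 ± 138 (n = 5), 293 ± 275 (n = 4) and 145 ± 118 CPM (n = 3) at 1, 2, 4 and 8 weeks. Ordered by mean, repaired muscle of 1, 4, 8 and 2 weeks stood above all 4 control groups for MYH8, and neighbours in this order overlapped in each case. MYOM2 averaged 1355 ± 867, 2241 ± 976, 3605 ± 892 and 3550 CPM (range 2819 to 4451 at 8 weeks) in repaired muscle, so that 1 and 2 weeks stood below every control group and 4 and 8 weeks between the control groups. ATP2A1 averaged 14354 ± 8648, 13990 ± 8086, 16338 ± 6347 and 19561 ± 9047 CPM. Neighbouring groups overlapped throughout for these genes as well.

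The ratio of 2 genes within a library does not depend on how libraries are scaled to each other. The log2 ratio of MYH8 to MYOM2 counts lay at -7.34 to -5.65 in the controls of 1 week and at -4.46 to -0.34 in repaired muscle, a rise of 2.25 to 6.63 in 4 of 4 rabbits. At 4 weeks it rose by 1.92 to 4.33 in 4 of 4 rabbits and at 8 weeks by 0.97 to 2.53 in 3 of 3. At 1, 4 and 8 weeks every repaired shoulder kept in the fit lay above every control. How often ratios of other genes part in this way was not counted. The left-out repair library of rabbit 3 (8 weeks) was at -6.38, below its control at -5.74. At 2 weeks the ratio was higher in 2 of 5 rabbits, with a median difference of -0.26 and a single large rise of 4.75 in rabbit 59.

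MYH8 over ATP2A1 followed the same course, with repaired and control muscle apart at 1 week (rises of 2.01 to 6.29), 4 weeks (1.80 to 4.68) and 8 weeks (0.06 to 3.02) and 1 of 5 rabbits higher at 2 weeks. In the left-out library of rabbit 3 this ratio was -7.73, above its control at -9.01. The ratio of MYOM2 to ATP2A1 was lower after repair in 4 of 4 rabbits at 1 week (median difference -0.49) and 5 of 5 at 2 weeks (-0.47). It was higher in 3 of 4 rabbits at 4 weeks and 2 of 3 at 8 weeks, and its groups overlapped at every time point.

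**Figure D3:**
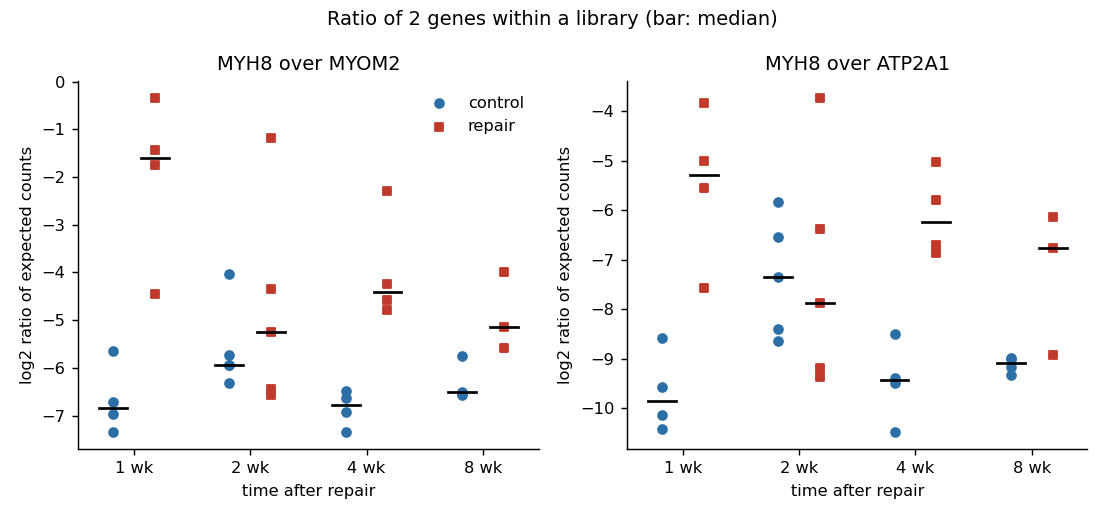
Log2 ratio of the expected counts of MYH8 to MYOM2 (left) and to ATP2A1 (right) in each library (points; blue circles control, red squares repair) by time after repair, with bars at the group medians. Repaired and control muscle did not overlap at 1, 4 and 8 weeks and overlapped at 2 weeks; the values are ratios of counts, which also carry the unequal lengths of the genes.

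No relation was detected between the difference of MYH8 and that of MYOM2 from rabbit to rabbit. Left-minus-right differences on the log2 scale were related over 16 rabbits with permutation tests (100000 resamples, two-sided, adjusted over 3 pairs). MYH8 and MYOM2 gave r = 0.04 (p = 0.883) and rho = 0.144 (p = 0.596), and MYH8 and ATP2A1 r = -0.10 (p = 0.70) and rho = -0.171 (p = 0.525). Rabbit 7 had the largest rise of MYH8 (5.18) with a fall of MYOM2 by 1.45, and rabbit 6 the largest fall of MYOM2 (-3.79) with a rise of MYH8 of 1.78. Within the rabbits of 1 and 8 weeks (n = 7) and of 2 and 4 weeks (n = 9), r was -0.11 and 0.32 for MYH8 with MYOM2 and -0.15 and 0.06 for MYH8 with ATP2A1 (exact p of 0.409 to 0.888). In the same order of sets, rho was -0.357 (exact p = 0.444) and 0.683 (exact p = 0.0503, adjusted p = 0.151) for MYH8 with MYOM2, and -0.50 (exact p = 0.267) and 0.20 (exact p = 0.613) for MYH8 with ATP2A1.

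MYOM2 and ATP2A1 differed together, with r = 0.648 (p = 0.0120, adjusted p = 0.0361, permutation test) and rho = 0.476 (p = 0.0645, adjusted p = 0.193). Both differences carry the same scaling factors, and with plain library totals r was 0.524. The relation rests on few animals: without rabbits 6 and 59, the farthest from the median of MYOM2, r was 0.356. Among the 7 rabbits of 1 and 8 weeks r was 0.852 (exact permutation p = 0.0371, adjusted p = 0.111), falling to 0.278 without rabbits 2 and 6. Among the 9 rabbits of 2 and 4 weeks it was 0.258 (exact permutation p = 0.50).

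**Figure D4:**
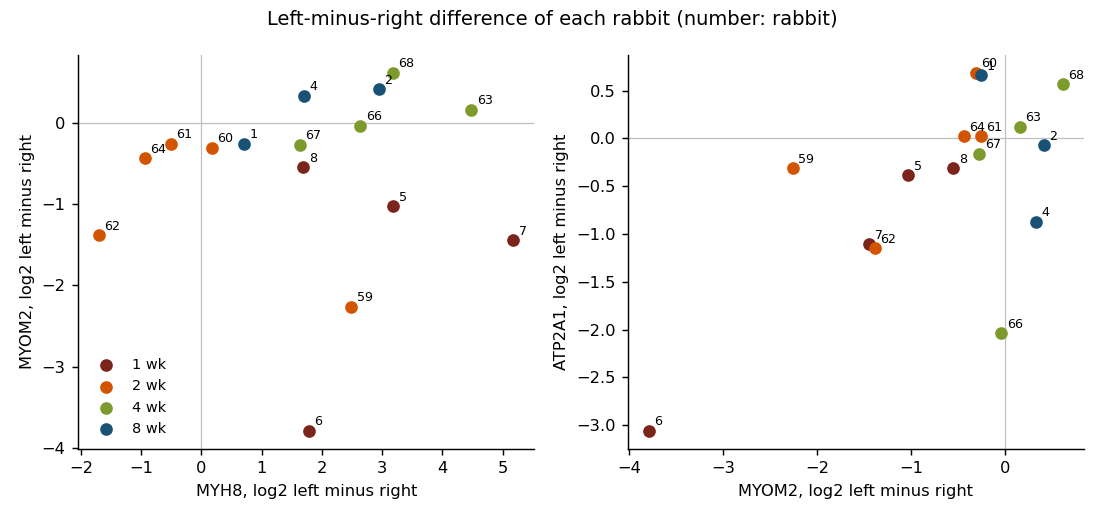
Log2 difference, left repaired minus right control shoulder, of MYOM2 against MYH8 (left panel) and of ATP2A1 against MYOM2 (right panel); each point is 1 rabbit with its number, coloured by weeks after repair. Points scatter without a common slope in the left panel (r = 0.04), and rabbit 6 lies far from the others at the lower left of the right panel (r = 0.648 with it, 16 rabbits).

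Other genes of the sarcomere were read from a list of 51 symbols, of which 11 could be found among the genes with a symbol and 9 are neither MYH8 nor MYOM2. At 1 week 2 of the 9 were called, both lower, where 6.88% of all genes were: LDB3, a Z-disc protein (log2FC -1.30, adjusted p = 0.0101), and SYNM, an intermediate filament protein (-1.02, adjusted p = 0.0485). The median log2FC of the 9 was -0.73, beside 0.05 over all genes, and 8 of 9 were negative. At 2 weeks 5 of 9 were called, all lower, where 7.92% of all genes were; the median was -0.89 beside 0.06. These were PDLIM5 (-1.02), TCAP (-1.01), SMPX (-0.91), LDB3 (-0.89) and DES (-0.84).

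TCAP, PDLIM5 and LDB3 belong to the Z-disc, DES is the main intermediate filament of the muscle fiber, and SMPX is a small protein of striated muscle. The count of 5 was 1 without the repair library of rabbit 59 and 2 or 3 without some other single libraries. At 1 week SYNM lost its call in 7 of 8 fits that left out a library, and LDB3 in none. None of the 9 was called at 4 weeks (1 at an unadjusted p under 0.05) or at 8 weeks (0), and edgeR and DESeq2 called none there either; their medians were -0.47 and -0.20. MYH8 was the single gene of the 11 called higher at any time point in limma-voom.

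The other myosin heavy chain with a symbol, MYH7B, had a log2FC of -0.73, -1.01, -0.56 and -0.35 at the 4 time points, with adjusted p-values of 0.315 to 0.999. TNNT3, the troponin T of fast fibers, was at 4325 ± 3279 CPM in repaired muscle of 1 week against 8410 ± 1861 in controls (n = 4 each; log2FC -1.57, adjusted p = 0.0993) and within 0.25 of 0 on the log2 scale later. TNNT3 was lower in 4 of 4 rabbits at 1 week.

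From a list of 24 genes of calcium release and uptake 6 were found besides ATP2A1. S100A1, a calcium-binding protein of muscle, was called lower at 2 weeks (log2FC -1.49, adjusted p = 0.0218) and at no other time. It averaged 77.5 CPM in repaired muscle of 1 week and 72.0 CPM in that of 2 weeks. The controls averaged 73.7 CPM at 1 week and 206 ± 117 CPM at 2 weeks. Controls of 1 and 8 weeks minus those of 2 and 4 weeks gave -1.12 for S100A1 (limma-voom, adjusted p = 0.0167). CACNA1S, the voltage sensor of the transverse tubule, was at -0.38, -0.16, -0.40 and -0.09, and TRDN, which anchors proteins of the release complex, at -0.38, -0.57, -0.18 and -0.03, none called. Of 4 genes of fast-fiber energy supply that were found, the glycogen phosphatase subunit PPP1R3A was called lower at 1 week (-1.12, adjusted p = 0.0495, lost in 7 of 8 fits without 1 library), and PYGM, ENO3 and GYS1 were not called at any time.

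A list of regeneration and denervation genes held 5 besides MYH8. GADD45A, a stress gene that also rises in denervated muscle, was called higher at 1 week (log2FC 2.08, adjusted p = 0.000479), and FGF6, a growth factor of skeletal muscle, was called lower at 1 week (-2.07, adjusted p = 0.00768) and 2 weeks (-1.58, adjusted p = 0.0292). At 2 weeks edgeR and DESeq2 did not call FGF6, nor did the paired fit with rabbit as a block (-1.26, adjusted p = 0.0652). EYA2, a cofactor of transcription in developing muscle, had a log2FC of 1.71, 1.97, 1.94 and 1.68 and was not called; with the shoulders paired it was called at 1 week (1.72, adjusted p = 0.00906) and 2 weeks (2.31, adjusted p = 0.00398), from means under 4 CPM. The paired fit also called GADD45A at 2 weeks (0.69, adjusted p = 0.0268). Of all genes it called 3406 at 1 week and 4088 at 2 weeks, against 1771 and 2053 in the fit used here. MYF6 and EYA4 were not called at any time.

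**Figure D5:**
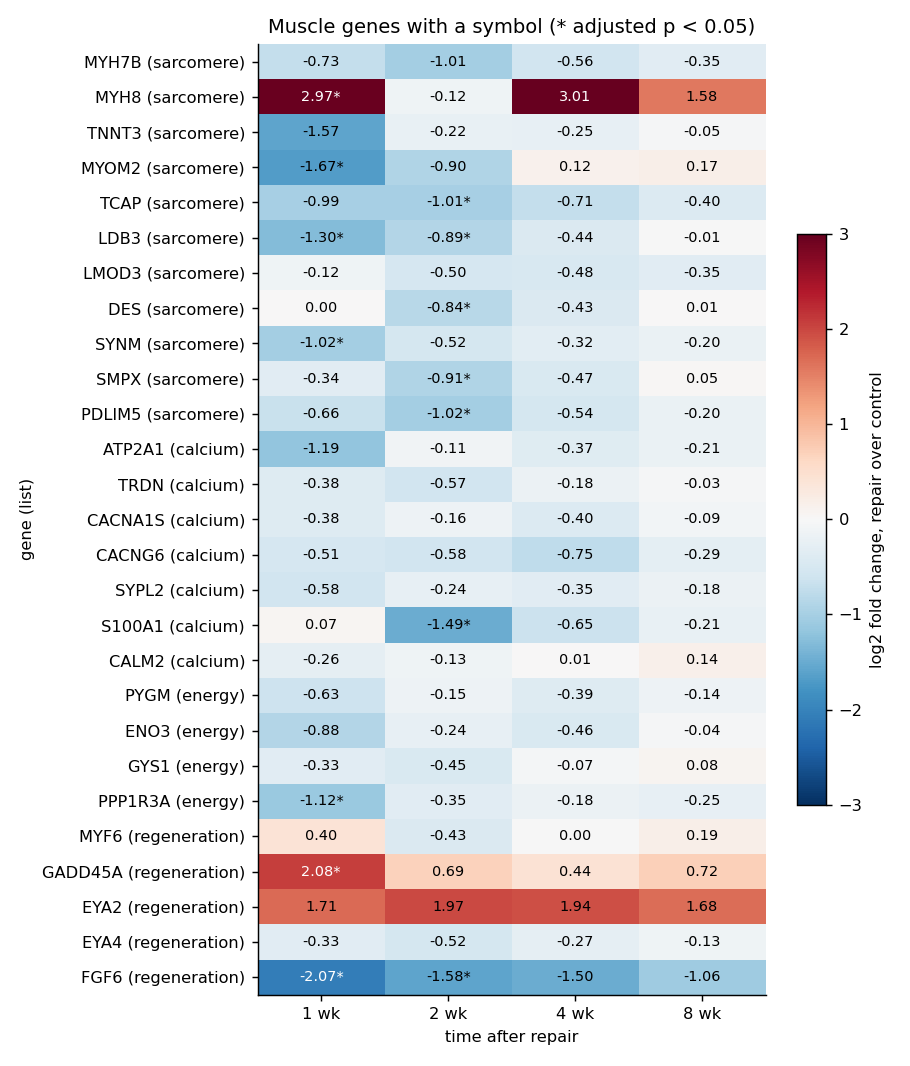
Log2 fold change of repair over control (colour and printed value) for the sarcomere, calcium, energy and regeneration genes with a symbol (rows, list in brackets) at each time after repair (columns); a star marks an adjusted p under 0.05 in limma-voom. MYH8 (2.97 and 3.01) was the most strongly raised row at 1 and 4 weeks, and most sarcomere rows were negative at 1 and 2 weeks.

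Some markers of other cells also differed between repaired and control muscle, and their relation to the 3 genes was not tested. The summed CPM of 7 fibroblast markers was 4829 to 18241 in repaired muscle of 1 week against 1289 to 1684 in controls, and 593 to 56651 against 710 to 1195 at 2 weeks; 3 of the 7 were called higher at 2 weeks, where 7.95% of all genes were, and 0 at 1 week (4 at an unadjusted p under 0.05, 3 in edgeR, 4 in DESeq2 and 3 with the rabbit as a block). The 3 calls at 2 weeks were PDGFRA, COL1A1 and COL1A2, lost in 7, 5 and 5 of 10 fits without 1 library. At that time edgeR and DESeq2 called 7 and the block 4. At 4 weeks the sums were 790 to 5079 against 560 to 1140, and at 8 weeks 2556 to 4484 against 1556 to 3341. For 2 adipocyte markers, both called higher at 1 week, where 6.81% of all genes were, the sums were 289 to 915 against 127 to 216 there. Without 1 library LIPE lost this call in 5 of 8 fits and ADIPOQ in 6 of 8. At 2 weeks, when ADIPOQ was called, the adipocyte sums were 122 to 708 against 87.8 to 123. They did not overlap at 4 weeks (307 to 586 against 74.8 to 176; both markers called with the rabbit as a block, in edgeR and in DESeq2, and 0 in the fit used here, where both had an unadjusted p under 0.05) or at 8 weeks (257 to 385 against 134 to 257, with the lowest repaired shoulder just above the highest control; 0 called in any of these fits, and 0 at an unadjusted p under 0.05). Of all genes, 235, 221 and 410 were called higher at 4 weeks with the block, edgeR and DESeq2.

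By rabbit, the repair libraries with the least MYOM2 stood high in these sums. Rabbit 59 at 2 weeks had the highest fibroblast (56651) and macrophage (382) sums of the 33 libraries, and rabbit 6 at 1 week the highest adipocyte sum (915) with a fibroblast sum of 4829, the lowest of the 4 repaired shoulders of 1 week. Rabbit 7 had the highest MYH8 and the next highest fibroblast sum (18241). The part of these cells in the levels of MYH8, MYOM2 and ATP2A1 was not tested. Of the 4 macrophage markers found 1 (CD163) was at 0 in some library, and of the fibroblast, adipocyte, endothelial and smooth muscle markers none was. Sums of 3 endothelial markers (237 to 323 against 192 to 256 at 1 week) and of 5 smooth muscle and pericyte markers (203 to 396 against 180 to 280) overlapped between the groups there. At 4 weeks the smooth muscle and pericyte sums did not overlap (243 to 309 against 150 to 195), with 0 of 5 called (2 at an unadjusted p under 0.05, and 0 in edgeR and DESeq2), while the endothelial sums did (171 to 233 against 141 to 220). Of the macrophage markers 0 of 4 was called in the fit used here at any time. At 2 weeks 1 had an unadjusted p under 0.05, edgeR and DESeq2 called 4, the rabbit as a block 3 and the correlation between shoulders 0. Of the endothelial and the smooth muscle markers 1 each was called higher at 2 weeks, where 7.95% of all genes were. These were VWF and MYLK, lost in 7 and 3 of 10 fits without 1 library. At 2 weeks 3 of 3 and 4 of 5 had an unadjusted p under 0.05. The block, edgeR and DESeq2 called 3, 2 and 2 endothelial and 3, 4 and 4 smooth muscle markers higher. These fits called 2480, 2586 and 2684 of all genes higher.

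The genes whose left-minus-right difference was most like that of each of the 3 were read from those with a symbol, as a description over 16 rabbits. For ATP2A1 these were TNNT3 (r = 0.982), ENO3, the enolase of muscle (0.973), EFCAB7 (0.964), GADL1 (0.957) and RCSD1 (0.948). For MYOM2 they were CISD1 (0.868), UGP2 (0.832), LDB3 (0.829) and COX10 (0.821). All 4 were called lower at 1 week, where 6.88% of all genes were. They were picked for differences like those of MYOM2 in the same rabbits, so these calls are not independent of its own. For MYH8 they were MAP11 (0.783), PAFAH2 (0.681), GLTP (0.677), CCNG2 (0.676) and SYAP1 (0.629). Over the 33 libraries themselves CISD1 again ranked 1 for MYOM2 (r = 0.876) and EFCAB7 for ATP2A1 (0.969), whereas MAP11 gave -0.19 for MYH8 and ranked 1873.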

How the data were processed

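Per the labels and the study's methods, RNA (stranded mRNA kit, 75 bp single reads) was aligned by the authors with STAR v2.5.1a to OryCun2.0 and quantified with RSEM v1.3.0 on Ensembl release 91, giving the unscaled expected counts that were deposited. Symbols were read from the study's supplementary lists and were obtained for 3310 of 12937 genes tested. The study reports mapping more genes than this to human orthologs, so a gene may lack a symbol only here. After the filter described above, limma-voom (limma 3.58.1 and edgeR 4.0.16 under R 4.3.3) was run on TMM-scaled counts of the 33 libraries with a coefficient for each group of treatment and time and Benjamini-Hochberg adjustment. Counts were rounded for edgeR quasi-likelihood and DESeq2 1.42.0. The fit was tested on simulated data. Pairing comes from the animal: residuals of the shoulders of a rabbit correlated at 0.0252 to 0.434 (median 0.257, 16 rabbits), and duplicateCorrelation gave 0.174. Relations used SciPy 1.17.1. The 3 genes, the lists and the tests were chosen with earlier results of these data known. List genes were named when called at any time point or when they are direct partners of the 3, and genes like each of the 3 were the 5 of highest r, of which 1 is not reported here. Columns of per-sample values left unused numbered 0.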

Additional observations from a re-analysis of the deposited data

Results flagged for a closer look

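Groups of 4 or 5 libraries were tested for a single library far from the others (Dixon's ratio of the gap to the range). Of 21 such groups 4 held one. Chance flags about 1 in 20 groups of normally distributed values. The ratio was taken on CPM and not on a log scale, so that rate need not hold here. MYH8 stood apart at 361 CPM in the repaired shoulder of rabbit 59 at 2 weeks, at 271 CPM in the control shoulder of rabbit 62 at 2 weeks and at 703 CPM in the repaired shoulder of rabbit 63 at 4 weeks. MYOM2 stood apart at 3975 CPM in the control shoulder of rabbit 5 at 1 week.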

How the results depend on the processing

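Against the fit reported, the results for MYH8, MYOM2, ATP2A1 and the sarcomere list were recomputed with 10 or 11 other settings where these apply. For the 3 genes the calls at 1 week held in all but the fit of that time point alone, where MYOM2 was at -1.69. The direction turned where effects were near 0: MYH8 at 2 weeks was 0.14 with library totals, 0.19 in edgeR and 0.21 in DESeq2; ATP2A1 at 2 weeks 0.10 with library totals and 0.23 with sample quality weights; the effect at 4 minus 8 weeks 0.046 in MYOM2 and 0.24 in ATP2A1 with all 34 libraries, and 0.12 and 0.035 with library totals. MYH8 at 4 weeks passed the threshold with the replicate block (2.98), the correlation between shoulders (3.01), edgeR (3.33), DESeq2 (3.32) and quality weights (2.92). In the same order these settings called 364, 189, 326, 675 and 1032 of all genes at 4 weeks. The mean effect of MYOM2 missed the threshold with library totals (-0.33), no filter (-0.60) and edgeR (-0.43). Sarcomere genes lower at 1 week numbered 1 with all 34 libraries, library totals or no filter and 4 with DESeq2, quality weights or the time point alone; at 2 weeks 0 with all 34 libraries or the time point alone, 3 with library totals and 1 with quality weights. The cause was not tested. With the rabbit as a replicate block, MYH8 at 4 weeks was the call of the 3 genes that changed.

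Leaving out 1 library at a time gave, at 1 week, 2.40 to 3.59 for MYH8 and -2.03 to -0.96 for MYOM2; at 2 weeks -0.66 to 0.32 for MYH8 and -0.40 to 0.20 for ATP2A1; at 4 weeks 2.45 to 3.32 for MYH8 and -0.033 to 0.24 for MYOM2; at 8 weeks -0.011 to 0.33 for MYOM2 and -0.56 to 0.17 for ATP2A1. Effects at 2 minus 4 weeks ranged from -0.090 to 0.57 in ATP2A1, those at 4 minus 8 weeks from -0.21 to 0.13 in MYOM2 and -0.54 to 0.19 in ATP2A1, and the mean effect of MYOM2 from -0.66 to -0.39. Without 1 rabbit r was -0.052 to 0.15 for MYH8 and MYOM2 and 0.28 to 0.79 for MYOM2 and ATP2A1, and 1 to 2 and 1 to 5 sarcomere genes were lower at 1 and 2 weeks. Genes called among all tested numbered, over the other settings, 294 to 4179 (1 week), 5 to 4088 (2 weeks), 0 to 1032 (4 weeks) and 0 to 84 (8 weeks). Depth put none of the 3 genes near detection (lowest expected count 186, in MYH8); each group held 3 to 5 rabbits.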
